A study of Mus musculus with 4 samples.

Results

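The 40 genes described here encode proteins that copy and segregate chromosomes, and they were taken by name from the 31053 genes of 4 mouse single-cell libraries. 12 of them serve S phase (Mcm2 to Mcm7, Gins2, Pcna, Rrm1, Rrm2, Tyms and Tk1) and 26 serve G2 and mitosis, here called G2/M members. Stmn1 and Hmgb2 were kept apart, because cells outside the cycle use them too. By the protocol text, the libraries were made with the 10x Genomics droplet method from CD45hi cells, that is cells sorted by flow cytometry for high surface CD45. The cells came from the brain and the spleen of aged and of young mice, with 1 library for each. The labels give no strain, sex, age in months or number of animals. A treatment text shared by all 4 samples names a tamoxifen injection 4 weeks before tissue collection, in mice whose NK cells were followed by tdTomato, so this treatment, where it applies, is common to aged and young. All 40 members had UMIs (counted RNA molecules) in each of the 4 libraries.

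S phase members build and feed the replication fork: Mcm2 to Mcm7 form the ring of the replicative helicase, Pcna is the clamp that holds DNA polymerase, and ribonucleotide reductase (Rrm1, Rrm2), thymidylate synthase (Tyms) and thymidine kinase (Tk1) supply nucleotides. G2/M members act later: cyclins A and B switch on Cdk1, Aurora and Polo kinases and their partners build the spindle and attach chromosomes, and the anaphase-promoting complex (APC/C) with Cdc20 and Ube2c ends mitosis by marking proteins for destruction. Microglia and lymphocytes of a resting animal mostly lie outside the cycle, whereas red cell precursors and plasmablasts divide quickly.

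The division into S and G2/M members is also visible in their promoters. S phase genes are known as E2F targets. G2/M genes are known as targets of the DREAM and B-Myb complexes through a cell cycle genes homology region (CHR). G2/M promoters often hold CCAAT boxes as well. The promoters below were chosen to show these elements in 4 G2/M members (Top2a, Ccnb2, Cdc20, Cdk1) and 2 S members (Mcm3, Mcm6). They come from RefSeq's mouse build GRCm38.p6, all 6 from the minus strand, and each is written 5′ to 3′ along its gene and covers 100 bases before to 50 after the start. In the first 4, capitals mark CCAAT (or its reverse ATTGG) and CHR as TTTGAA (or its reverse TTCAAA). In Mcm3 and Mcm6, capitals mark the E2F core, TTCCCGC or TTGGCGC on either strand, and CCAAT is left in lower case. The regions are chr11:99024140-99024289 for Top2a, chr9:70421505-70421654 for Ccnb2, chr4:118437294-118437443 for Cdc20, chr10:69352863-69353012 for Cdk1, chr1:20820263-20820412 for Mcm3 and chr1:128359656-128359805 for Mcm6.
Top2a: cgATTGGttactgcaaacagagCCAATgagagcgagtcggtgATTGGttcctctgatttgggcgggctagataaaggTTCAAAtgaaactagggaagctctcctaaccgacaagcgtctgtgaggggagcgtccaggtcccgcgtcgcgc
Ccnb2: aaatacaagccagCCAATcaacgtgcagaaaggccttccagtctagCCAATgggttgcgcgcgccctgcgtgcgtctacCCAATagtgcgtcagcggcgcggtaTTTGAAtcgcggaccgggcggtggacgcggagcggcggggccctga
Cdc20: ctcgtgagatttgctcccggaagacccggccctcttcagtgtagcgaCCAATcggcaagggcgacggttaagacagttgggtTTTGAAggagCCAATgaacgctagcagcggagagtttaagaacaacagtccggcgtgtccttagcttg
Cdk1: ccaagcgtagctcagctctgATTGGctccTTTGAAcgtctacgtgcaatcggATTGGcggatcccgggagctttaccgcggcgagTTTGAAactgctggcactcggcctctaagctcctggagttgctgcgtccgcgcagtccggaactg
Mcm3: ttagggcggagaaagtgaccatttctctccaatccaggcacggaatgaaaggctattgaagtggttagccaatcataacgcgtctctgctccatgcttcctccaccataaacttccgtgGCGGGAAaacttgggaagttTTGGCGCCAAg
Mcm6: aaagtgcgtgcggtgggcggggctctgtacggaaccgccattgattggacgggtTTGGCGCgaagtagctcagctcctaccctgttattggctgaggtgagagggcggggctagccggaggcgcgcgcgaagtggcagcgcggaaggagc

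Promoters of 33 of the 40 members were matched by symbol, 10 of S members and 22 of G2/M members. In the window from 250 bases before to 50 after the start, TTTGAA occurred on either strand in 17 of 22 G2/M promoters (77.3%) and in 1 of 10 S promoters (10%, Mcm2), against 17.9% of all 32851 promoters. CCAAT was common in both, in 20 of 22 G2/M and 8 of 10 S promoters, against 37.4% of all. The E2F core occurred in 5 of 10 S promoters (Mcm3, Mcm5, Mcm6, Mcm7, Rrm1) and in 3 of 22 G2/M promoters (Ccnb1, Cdk1, Mki67), against 6.81% of all. TTTGAA and CCAAT stood together in 17 of 22 G2/M promoters and in 1 of 10 S promoters (Mcm2), against 6.95% of all. In the shorter window from 100 bases before to 50 after the start, it was 15 of 22, 0 of 10 and 1.93% of all. The CHR variant TTTAAA occurred in 7 of 22 G2/M promoters and 3 of 10 S promoters, against 13.2% of all. These are matches of letters and were not set against binding data.

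The libraries held between 26384220 UMIs (young brain) and 57011537 UMIs (aged brain). After cell calling, filters and removal of predicted doublets, 10243 cells of aged brain, 3561 of young brain, 5298 of aged spleen and 6355 of young spleen remained, with medians of 2159, 2326, 4627 and 4124 UMIs per cell. The young brain library shared 4719 called barcodes with the aged spleen library, where 7.02 would be shared by chance, and 4718 of these held more UMIs in the aged spleen. The 5047 young brain cells whose barcode held more UMIs in the aged spleen were therefore left out. The other pairs of libraries shared 7 to 52. Clusters were formed without cell cycle genes and named from marker lists, as "microglia-like" and so on. The labels call all samples neuroblasts, but no cluster was named from the neuron and neuroblast list. Aged brain also held 460 endothelial-like and 216 choroid plexus- and ependymal-like cells, so the CD45hi sort of the protocol text does not describe all cells kept. The largest class was microglia-like in both brains and B-like in both spleens. A brain cluster of few UMIs per cell, with 2309 aged and 510 young cells, stayed unnamed. Microglia-like cells numbered 5741 in aged and 2548 in young brain, and border macrophage-like cells 869 and 231. The spleens held 714 and 1778 NK-like, 1258 and 1296 T-like, 1881 and 2351 B-like, 331 and 131 plasma-like and 30 and 13 erythroid-like cells, aged before young.

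With 1 library per group there is no replicate and no test of age or tissue. Each ratio below compares 2 libraries, and its 95% interval (exact, from the counts) covers counting error only, as do the intervals of levels (Poisson) and shares (Clopper-Pearson). Levels are in CPM, the UMIs of a gene per 1000000 UMIs of the class. A member was counted as past 2-fold when its CPM ratio was at least 2 or at most 0.5, and only genes whose UMIs in both libraries came to 50 or more were measured in this way. A cell with UMIs of at least 3 different G2/M members is called a G2/M cell, and one with at least 3 different S members an S cell. These are counts of members found together and not phase calls. Where a member reached 50 UMIs mainly through the library in which it was high, a difference was built into its being measured, so counts and medians over measured members describe them and support nothing further.

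G2/M cells made up 0.879% of aged brain cells (90 cells), 0.365% of young brain (13), 4.76% of aged spleen (252) and 2.41% of young spleen (153). S cells made up 1.61%, 1.01%, 15.3% and 12.8% in the same order. Cells were also thinned to 1000 UMIs, and cells with fewer were left out. G2/M cells then made up 0.821%, 0.329%, 1.465% and 0.701%, and S cells 0.290%, 0.197%, 1.287% and 0.6845%. At equal depth the spleen G2/M shares and all S shares were thus lower. The brain G2/M shares changed little, but were taken over fewer cells. Of the unnamed brain cluster of few UMIs per cell, only 420 of 2309 aged and 111 of 510 young cells stayed in. Among the splenic classes with at least 10 cells, the G2/M sum ran from 111 CPM in young monocyte- and macrophage-like cells to 10962 CPM in aged erythroid-like cells. The S sum ran from 139 CPM (6 UMIs) in young erythroid-like cells to 1653 CPM in the aged cells of the same class. Choroid plexus- and ependymal-like cells, which should not divide, had G2/M members at 22.7 CPM in aged brain, no G2/M cell among 216 and no Mki67 UMI. A count of 0 allows a share of up to 1.39% by the limit of 3 counts and 1.69% by the Clopper-Pearson interval. Mural- and fibroblast-like cells had 22.5 CPM and no G2/M cell among 172 (1.74% and 2.12%). These limits hold for cells in which 3 members were detected and not for dividing cells, since only 106 of the 216 choroid-like cells reached 1000 UMIs. Their S cells were not rare, at 10 of 216 and 10 of 172, and the 10 choroid-like ones had a median of 28720.5 UMIs against 972.5 in the class.

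**Figure D1:**
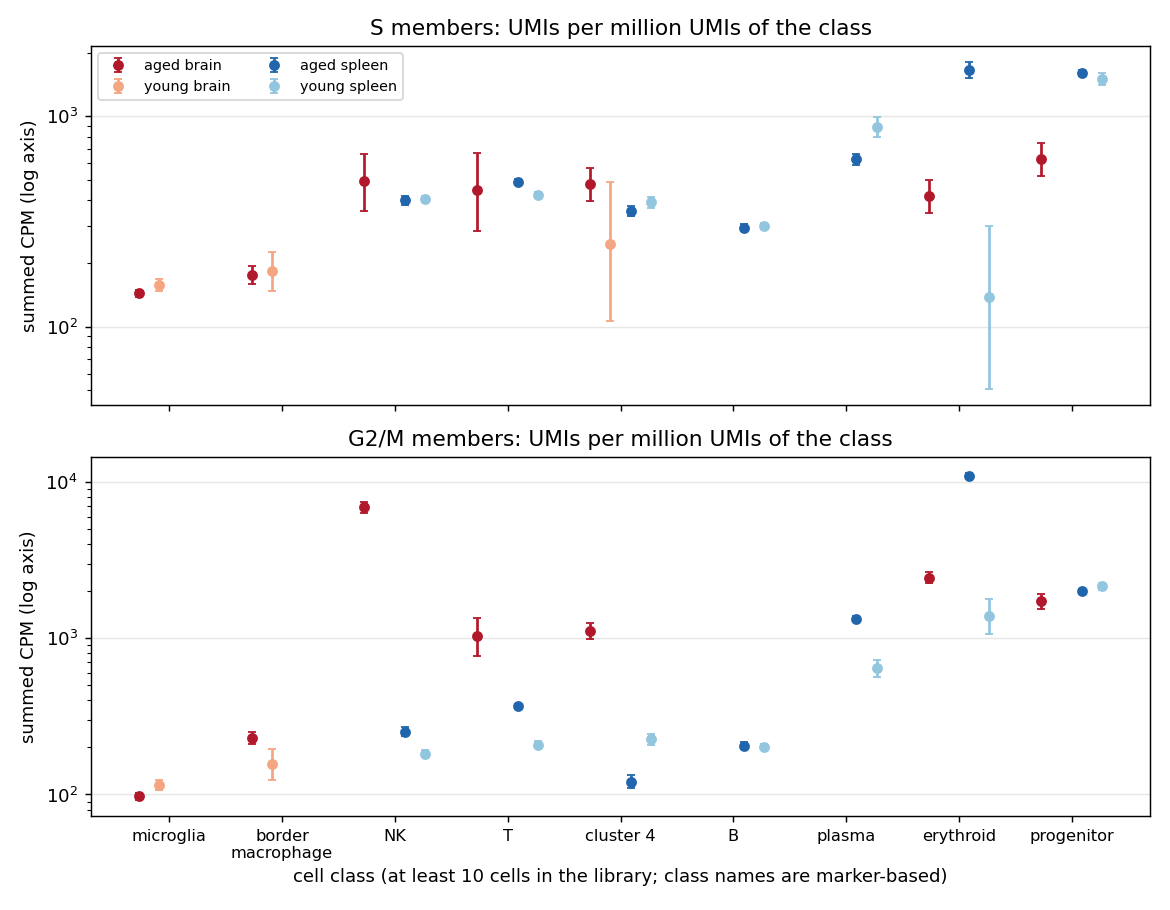
Summed CPM of the 12 S members and of the 26 G2/M members (log axis) by cell class, 1 point per library with at least 10 cells of the class, with its exact 95% interval for counting error. Among the points shown, G2/M sums are highest in aged spleen erythroid-like cells (10962 CPM) and aged brain NK-like cells (6873 CPM), while S sums span a narrower range.

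Free RNA in the droplets also carries the members. In barcodes of at most 100 UMIs, the G2/M sum was 119 CPM in aged brain, 309 in young brain, 532 in aged spleen and 307 in young spleen, and the S sum was 154, 268, 469 and 449 CPM. Both spleens therefore had a free G2/M level above the cell level of their NK-, T- and B-like classes. Both brains had one above that of their microglia-like cells. The young brain level was taken over all its barcodes of at most 100 UMIs, and none shared with the aged spleen was left out. Whether aged spleen RNA contributed to it was not tested. The part of free RNA in the comparisons was not tested. A count of cells that hold 3 G2/M members depends less on single stray UMIs, and both measures are given.

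G2/M cells were chosen by these same members, so the share of them with a given member is a description that also follows the member's abundance and the depth of the cells. In aged brain G2/M cells, Mki67, a coat protein of mitotic chromosomes, had UMIs in 88.9%, and Top2a, the topoisomerase that untangles sister chromatids, in 86.7%. In aged spleen G2/M cells the shares were 68.7% and 69.4%, and there Cenpa, the histone H3 variant of centromeres, was found in 75%. Bub1, a spindle checkpoint kinase, was at the low end with 22.6% in aged spleen. Pcna was in 33.3% of G2/M cells in aged brain and in 69.8% in aged spleen.

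Cells with at least 3 G2/M or at least 3 S members held most UMIs of some members and few of others, again as a description of cells chosen by the members. In microglia-like cells they held 88.8% (aged) and 90.0% (young) of the Mki67 UMIs, but 12.4% and 8.86% of the Pcna UMIs. In B-like cells they held 86.3% and 84.1% of Mki67, 52.3% and 48.3% of Top2a, 19.2% and 21.3% of Pcna and 15.9% and 16.1% of Cenpa. Cenpa and Pcna were thus spread over B-like cells that showed few other members. Cenpa had a UMI in 31.3% of aged and 27.4% of young B-like cells and gave 878 of the 1814 and 899 of the 2003 G2/M UMIs of the class. Choroid-like cells of aged brain had a Cenpa UMI in 0.463% of cells, and Pcna in 11.1%, at a median of 972.5 UMIs against 4199 in aged B-like cells. Hmgb2, a chromatin protein, was in 79.3% and 72.4% of B-like cells and in 91.6% and 87.4% of splenic NK-like cells.

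Few microglia-like cells of either brain counted as G2/M cells, and the shares did not differ with age beyond counting error. Median depth was 2388 UMIs in aged and 2485 UMIs in young cells. A cell without enough detected members was not thereby shown to lie outside G2/M. G2/M cells numbered 22 of 5741 in aged brain (0.383%, interval 0.240 to 0.580) and 10 of 2548 in young brain (0.392%, 0.188 to 0.721). Those few cells held 69.8% and 75.6% of the class's G2/M UMIs. Mki67 stood at 15.02 CPM in aged and 13.7 CPM in young cells, and Top2a at 15.5 and 15.9 CPM. Among S members, Tyms stood at 13.3 CPM in both, Rrm1 at 10.7 and 9.61, Mcm6 at 9.28 and 8.85, and Pcna at 30.2 aged and 48.2 young (ratio 0.627, 0.543 to 0.726). The S sum was 144 against 158 CPM (ratio 0.911, 0.846 to 0.981) and the G2/M sum 97.4 against 116 CPM (0.842, 0.771 to 0.920).

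Past 2-fold in microglia-like cells were 2 of 27 members with enough UMIs, where 6.75% of all 10956 genes were (5.28% higher and 1.46% lower). Cdk1, the mitotic kinase, stood at 3.29 CPM in aged against 7.32 CPM in young cells (0.449, 0.297 to 0.680), and Nusap1, a spindle protein, at 3.29 against 1.37 CPM (2.39, 1.17 to 5.53). The median log2 ratio was −0.45 over 15 G2/M members and 0.03 over 10 S members, beside 0.08 over all genes. The direction of the G2/M sum turned to 1.05 (0.881 to 1.26) without cells holding at least 3 members of a phase and to 1.06 when cell cycle genes entered the clustering. With all young brain barcodes kept, the G2/M ratio was 0.887 and the S ratio 0.917.

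The G2/M level was highest in a small microglia-like cluster, led by Lpl, Cxcl10, Ccl12, Ifit3 and Spp1. It held 188 aged and 95 young cells, with 549 of the 1511 aged and 163 of the 758 young G2/M UMIs of the class, so most G2/M UMIs lay outside it. In it, 9 of 188 aged (4.79%, 2.21 to 8.89) and 4 of 95 young cells (4.21%, 1.16 to 10.4) were G2/M cells, and the G2/M sum was 876 and 587 CPM. The cluster that held most aged microglia-like cells (5372) had 0.223% G2/M cells and 64.9 CPM (941 UMIs), and the one that held most young cells (2409) had 0.249% and 95.9 CPM (591 UMIs). Aged and young thus sat mostly in different clusters, and both had their highest G2/M level in the small shared one. Without this cluster the G2/M ratio of aged over young was 0.682.

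Border macrophage-like cells, the macrophages of meninges and vessels, had 10 G2/M cells of 869 in aged brain (1.15%, 0.553 to 2.11) and 1 of 231 in young brain (0.433%, 0.0110 to 2.39), and these intervals overlap. Mki67 stood at 25.0 CPM in aged cells (58 UMIs) and 1.98 CPM in young ones (1 UMI), a ratio of 12.6 with a counting interval of 2.18 to 508. Top2a stood at 35.8 against 5.93 CPM (83 and 3 UMIs, 6.03, 1.99 to 29.8). These were the 2 of 10 measured members past 2-fold, where 7.36% of all genes were (5.56% higher and 1.8% lower). Cenpa was on the other side, at 30.2 against 57.4 CPM, short of 2-fold, and Cdk1 stood at 5.17 against 29.7 CPM with fewer than 50 UMIs in all. The S sum was 175 against 184 CPM (0.954, 0.760 to 1.21). The G2/M sum was 231 against 156 CPM (1.48, 1.16 to 1.89) but 0.954 after thinning and 0.616 without the G2/M and S cells.

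**Figure D2:**
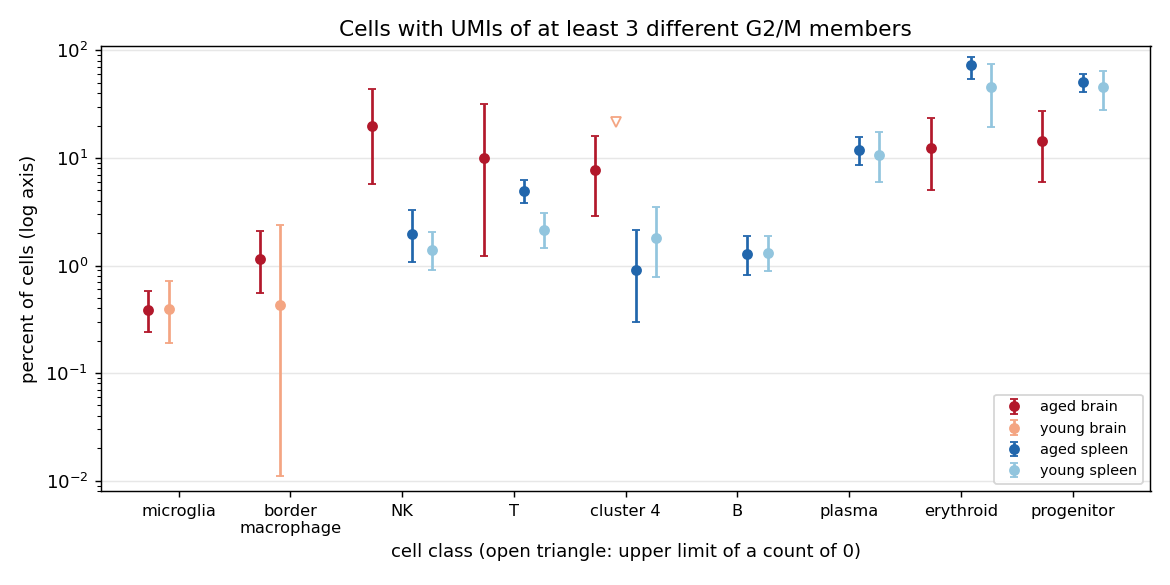
Percent of cells with UMIs of at least 3 different G2/M members by cell class and library (log axis, points with exact 95% intervals for counting error, which do not cover differences between animals). Microglia-like cells sit at 0.383% and 0.392%, splenic NK-, T- and B-like cells between 1.28% and 4.93%, plasma-like cells at 11.8% and 10.7%.

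In the aged brain, 4 of 20 NK-like cells were G2/M cells (20%, 5.73 to 43.7), against 14 of 714 in aged spleen (1.96%, 1.08 to 3.27) and 25 of 1778 in young spleen (1.41%, 0.912 to 2.07). After thinning, the aged brain share was still 20%. The 4 cells each held 22 to 24 of the 26 G2/M members with 113 to 168 G2/M UMIs, among 7044 to 12872 UMIs, and 2 to 8 S members. All 4 had UMIs of the NK receptor Ncr1 (2 to 7). Their barcodes were not found in another library, but barcodes of few UMIs were not searched there. They gave 99.3% of the class's G2/M UMIs.

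The levels in aged brain NK-like cells rest on these 4 cells. Mki67 stood at 1204 CPM against 20.4 CPM in aged spleen (59.1-fold, 43.2 to 81.3), Cenpf, a kinetochore protein, at 713 against 8.44 CPM (84.5-fold) and Top2a at 982 against 38.1 CPM (25.8-fold). Nusap1 (50.6-fold), Birc5 (survivin, of the chromosomal passenger complex; 43.5-fold) and Prc1, which bundles spindle microtubules (39.1-fold), came next. Only 10 of the 26 G2/M members came to 50 UMIs, and 6 of these had fewer than 50 in the spleen library, such as Nusap1 (29 brain and 23 spleen UMIs) and Birc5 (26 and 24), so their high level in the brain cells is what got them measured. The ratios of these 10 were over 2-fold, and 11.7% of all genes were higher, 14.7% lower and 26.4% past 2-fold either way. The 4 with at least 50 spleen UMIs were Mki67, Top2a, Ube2c (27.5-fold) and Cenpa (5.55-fold). The S side did not follow: the S sum was 491 against 398 CPM (1.23, 0.884 to 1.67), Mcm7 was higher (152 against 30.8 CPM, 4.93-fold), and Pcna was lower (35.1 against 150 CPM, 0.234, 0.0480 to 0.686; 3 UMIs). The G2/M ratio was 27.2 (24.5 to 30.3), but 0.652 (0.134 to 1.92) without the G2/M and S cells, and 0.702 when cell cycle genes entered the clustering, which left 14 brain cells in the class.

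T-like cells of the aged brain were also 20, with 2 G2/M cells. The G2/M sum was 1032 CPM against 366 CPM in aged spleen (2.82, 2.11 to 3.70), but 45 of the 53 UMIs came from 1 cell, and without the top cell of each library the ratio was 0.544. The other G2/M cell had 529 UMIs at a barcode that held 49960 in another library. Mki67 (8.97-fold, 16 UMIs), Stmn1 (9.36-fold, 22 UMIs) and Top2a (3.90-fold, 13 UMIs) were higher, Nusap1 stood at 7.16-fold (3 UMIs), Mcm5 at 2.90-fold (4 UMIs), Mcm7 at 2.33-fold (5 UMIs), and Pcna at 0.358-fold (3 UMIs, 0.0737 to 1.05). Of 31 measured members 18 were past 2-fold, where 26.5% of all genes were (18.9% higher and 7.68% lower), and many rested on 5 UMIs or fewer.

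An unnamed cluster of lymphocytes, led by Ly6c2, Cd7, Sidt1, Trdc and Klrc1, held 78 aged brain, 548 aged spleen and 442 young spleen cells. G2/M cells were 6 of 78 in aged brain (7.69%, 2.88 to 16.0), 5 of 548 in aged spleen (0.912%) and 8 of 442 in young spleen (1.81%). In aged brain over aged spleen, Mki67 stood at 166 against 8.06 CPM (20.5-fold, 12.5 to 34.1), Stmn1, a microtubule destabiliser, at 258 against 14.5 CPM (17.9-fold) and Top2a at 208 against 18.1 CPM (11.5-fold). Mcm7 (3.27-fold), Mcm6 (2.53-fold) and Kif23 (2.02-fold) were higher too, and Pcna (0.323-fold) and Mcm2 (0.355-fold, 2 UMIs) were lower. Past 2-fold were 8 of 14 members, where 25% of all genes were (12.8% higher and 12.2% lower). In aged over young spleen, Stmn1 (0.275, 0.196 to 0.380), Mki67 (0.323, 0.201 to 0.506) and Top2a (0.461, 0.333 to 0.634) were lower, 3 of 14 members, where 3.82% of all genes were past 2-fold (2.16% higher and 1.66% lower). The 6 brain G2/M cells held 96.9% of the class's G2/M UMIs there.

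Splenic NK-like cells had similar S members at both ages. Pcna stood at 150 against 136 CPM, Mcm6 at 51.5 against 66.97, Rrm1 at 26.8 against 28.4 and Tyms at 6.11 against 7.40, and the S sum at 398 against 405 CPM (0.983, 0.922 to 1.05). The G2/M sum was 253 against 183 CPM (1.38, 1.27 to 1.51), with a median log2 ratio of 0.55 over 15 members, beside −0.12 over all genes. Past 2-fold was 1 of 27 measured members, where 4.96% of all genes were (2.35% higher and 2.61% lower). It was Ube2c, the ubiquitin-conjugating enzyme of the APC/C, at 15.7 against 3.30 CPM (4.76, 2.91 to 7.98). Cdk1 (9.31 against 4.76 CPM) and Cenpa (61.1 against 33.7 CPM) lay just below 2-fold, and Mki67 (20.4 against 18.4 CPM) and Top2a (38.1 against 37.1 CPM) lay near 1. In the aged library 1 cell gave 246 of the 868 G2/M UMIs. The G2/M ratio was 1.01 after thinning and 1.02 (0.887 to 1.17) without the G2/M and S cells.

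T-like cells of the aged spleen had more G2/M RNA than those of the young spleen. G2/M cells were 62 of 1258 (4.93%, 3.80 to 6.27) against 28 of 1296 (2.16%, 1.44 to 3.11). After thinning they were 9 of 1254 (0.718%, 0.329 to 1.36) against 5 of 1284 (0.389%, 0.127 to 0.906), and these intervals overlap. With 5 members asked for, the thinned counts were 4 aged and 5 young cells. The G2/M sum was 366 against 209 CPM (1.75, 1.65 to 1.87) and the S sum 485 against 423 CPM (1.15, 1.09 to 1.20). Higher by over 2-fold were 8 of 35 measured members, all of G2/M, where 3.64% of all genes were higher, 2.41% lower and 6.04% were past 2-fold either way. Top2a stood at 64.9 against 25.9 CPM (2.50, 2.11 to 2.99), Ube2c at 21.3 against 8.89 CPM (2.40), and the spindle factor Tpx2 and the APC/C activator Cdc20 both at 8.41 against 3.35 CPM (2.51). The cyclins Ccnb1 (2.71) and Ccna2 (2.42) and the kinases Aurkb (2.47) and Aurka (2.37) completed the group. Of the 21 measured G2/M members, 14 had fewer than 50 UMIs in the young library. Among the 8, only Top2a and Ube2c reached 50 there. The others were measured through their level in the aged library, so the count of 8 supports nothing further. Mki67 stood at 34.7 against 22.3 CPM (1.56, 1.27 to 1.91). None of 12 S members was past 2-fold, and the median log2 ratio was 0.26 over them and 0.87 over 21 G2/M members, beside −0.07 over all genes. The G2/M ratio turned to 0.876 when cells above 5% mitochondrial UMIs were left out, which kept 615 aged and 935 young cells, and was 1.22 after thinning.

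The T-like class was a mixture that differed between the ages, and its clusters went opposite ways. A cluster led by Dapl1, Cd8b1 and Lef1 held 43.3% of aged and 42.9% of young T-like cells, and there the G2/M sum was 454 against 162 CPM (2.80, 2.54 to 3.097). A cluster led by Ctla4, Tnfrsf4 and Foxp3 held 41.9% of aged but 9.49% of young cells, and there it was 342 against 1016 CPM (0.336, 0.305 to 0.371). Another cluster, led by Cxcr6, held 14.8% and 47.6% and stood at 96.4 against 66.8 CPM (1.44). Leaving out the top cell of each library gave 2.91 and 0.424 in the first 2 clusters.

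Each measured G2/M member showed this opposition, but not each S member. All 10 G2/M members with at least 50 UMIs in both clusters had ratios above 1 in the Dapl1 cluster and below 1 in the Ctla4 cluster. The share of all genes with such opposite ratios was not counted. The members also share the same few cells, so they are not separate observations. Cenpe, a kinetochore motor, had 8.51 and 0.147, Cenpf 6.78 and 0.132, Ube2c 5.51 and 0.230, Top2a 4.53 and 0.451, Mki67 3.21 and 0.312, and Birc5 3.16 and 0.216. Among S members, Pcna had 1.11 and 1.03, Mcm6 1.16 and 1.32, and Rrm1 1.15 and 1.40, while Mcm7 had 1.14 and 0.541. G2/M cells were 3.30% against 1.80% in the Dapl1 cluster and 8.35% against 12.2% in the Ctla4 cluster, so the share of G2/M cells differed less than the summed level. In aged cells of the Dapl1 cluster 1 cell gave 405 of 1673 G2/M UMIs, and in young cells of the Ctla4 cluster 1 cell gave 312 of 716.

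**Figure D3:**
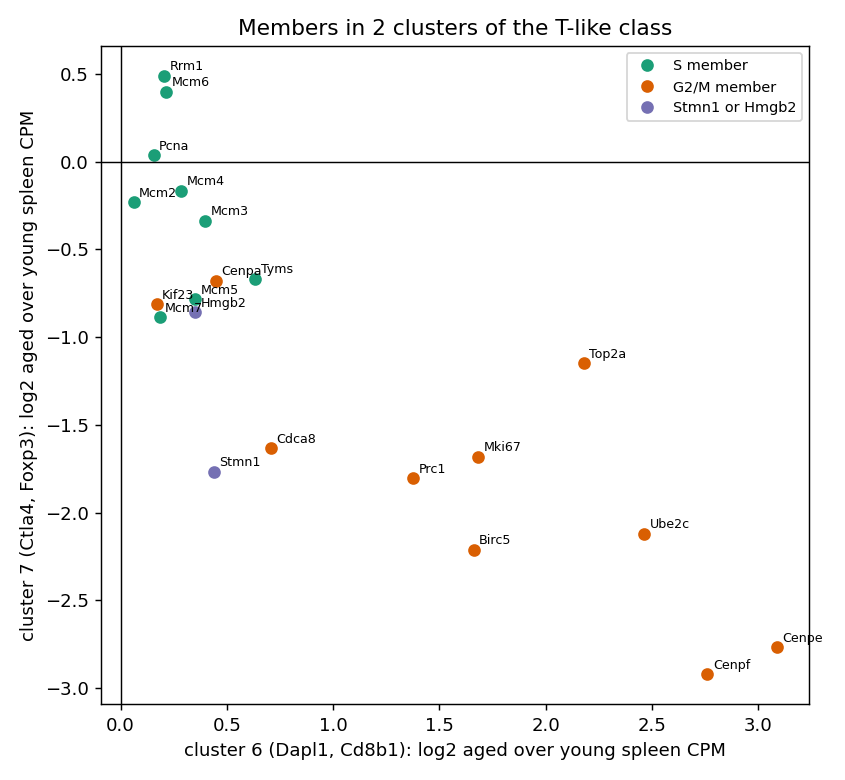
Log2 ratio of CPM, aged over young spleen, of the 21 members with at least 50 UMIs in both of the T-like clusters led by Dapl1 (horizontal, cluster 6) and by Ctla4 (vertical, cluster 7), 1 point per member, coloured by phase. All 10 G2/M members lie above 0 in the first and below 0 in the second, with Cenpe and Cenpf farthest out, while S members lie close to 0 in the first and on both sides of 0 in the second. The share of all genes placed like the G2/M members was not counted.

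B-like cells showed almost no difference with age. The S sum was 296 against 301 CPM (0.984, 0.934 to 1.04), the G2/M sum 206 against 201 CPM (1.03, 0.962 to 1.09), and G2/M cells were 24 of 1881 (1.28%, 0.819 to 1.89) against 31 of 2351 (1.32%, 0.898 to 1.87). Past 2-fold were 2 of 29 measured members, where 3.42% of all genes were (1.78% higher and 1.64% lower). Cyclin B1 (Ccnb1) stood at 4.08 against 1.90 CPM (2.14, 1.20 to 3.96) and Spc25, of the kinetochore's Ndc80 complex, at 3.40 against 6.81 CPM (0.499, 0.314 to 0.778). Mki67 stood at 11.6 against 8.82 CPM, Top2a at 17.1 against 23.6, Stmn1 at 17.2 against 25.5, Cenpa at 99.6 against 90.1 and Pcna at 116 against 102.

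Plasma-like cells had the highest share of G2/M cells of the splenic lymphocytes at both ages, 39 of 331 (11.8%, 8.51 to 15.8) in aged and 14 of 131 (10.7%, 5.97 to 17.3) in young spleen, and 8.49% and 9.52% after thinning. The shares did not differ beyond counting error, but the summed level did. The G2/M sum was 1333 against 642 CPM (2.08, 1.82 to 2.38), while the S sum was 624 against 888 CPM (0.703, 0.622 to 0.796). The aged G2/M cells were deeper, with a median of 10979 UMIs against 3052. None of the 19 measured G2/M members had 50 UMIs in the young library. Of 31 measured members 9 were higher by over 2-fold, all of G2/M, where 7.2% of all genes were higher, 27.9% lower and 35.1% were past 2-fold either way, and the median log2 ratio of all genes was −0.63.

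Among these 9, Mki67 stood at 295 against 55.5 CPM (5.32, 3.45 to 8.67), Prc1 at 37.6 against 5.29 CPM (7.11; 69 and 2 UMIs) and Cenpe at 41.9 against 10.6 CPM (3.97; 77 and 4 UMIs). Ccnb1 and Ccnb2 both stood at 31.6 against 7.93 CPM (3.99), Cenpf at 41.9 against 13.2 CPM (3.17), and Cdk1, Cdc20 and Cdca3 were between 2.24 and 2.82. The young values rest on 2 to 21 UMIs each. S members went with all genes: their median log2 ratio was −0.66, with Pcna at 124 against 211 CPM and Mcm6 at 61.0 against 114 CPM. The G2/M ratio was 1.005 after thinning and 0.922 (0.619 to 1.42) without the G2/M and S cells.

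Erythroid-like cells, the nucleated red cell precursors, of the aged spleen had the highest G2/M sum of any class and library (10962 CPM). In the young spleen they stood at 1387 CPM, below neutrophil-like (3380 CPM) and progenitor-like cells (2147 CPM), and in aged brain at 2446 CPM, below NK-like cells. G2/M cells were 22 of 30 in aged spleen (73.3%, 54.1 to 87.7), 6 of 13 in young spleen (46.2%, 19.2 to 74.9) and 7 of 57 in aged brain (12.3%, 5.08 to 23.7). Mki67 had UMIs in 96.7%, 69.2% and 17.5% of these cells and stood at 2701 CPM, 670 CPM and 537 CPM. In aged over young spleen the 24 measured members, none of which had 50 UMIs in the young library, were higher by over 2-fold, but 52.2% of the 630 measured genes were too (9.21% were lower and 61.4% past 2-fold either way), and the median log2 ratio of all genes was 1.10. Birc5 stood at 690 against 23.1 CPM (29.8, 5.30 to 1184; 212 and 1 UMIs), Nusap1 at 485 against 23.1 CPM (21.0), Ube2c at 1188 against 139 CPM (8.56) and Hmgb2 at 2450 against 347 CPM (7.07). Prc1 had 106 and 0 UMIs, at least 4.97-fold higher when the young library is set at 3 counts. The young library had 13 such cells with 60 G2/M UMIs in all. The G2/M ratio was 7.90, but 1.55 when cell cycle genes entered the clustering, which made the class 102 and 41 cells, and 1.62 with a mitochondrial limit of 20%.

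Progenitor-like cells of the spleen, led by Car1, Prtn3 and Mpo, give a class in which G2/M cells were common at both ages. G2/M cells were 53 of 104 in aged (51.0%) and 15 of 33 in young spleen (45.5%). None of 40 measured members was past 2-fold, where 4.84% of all genes were (3.19% higher and 1.66% lower). Mki67 stood at 250 against 229 CPM (1.09, 0.905 to 1.33) and Pcna at 233 against 222 CPM (1.05, 0.867 to 1.28). The S ratio was 1.07 and the G2/M ratio 0.935 (0.878 to 0.996). Neutrophil-like cells, led by the immature granule genes Ngp, Camp and Ltf among others, also held G2/M cells, 12 of 78 in aged brain, 12 of 40 in aged and 13 of 51 in young spleen.

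**Figure D4:**
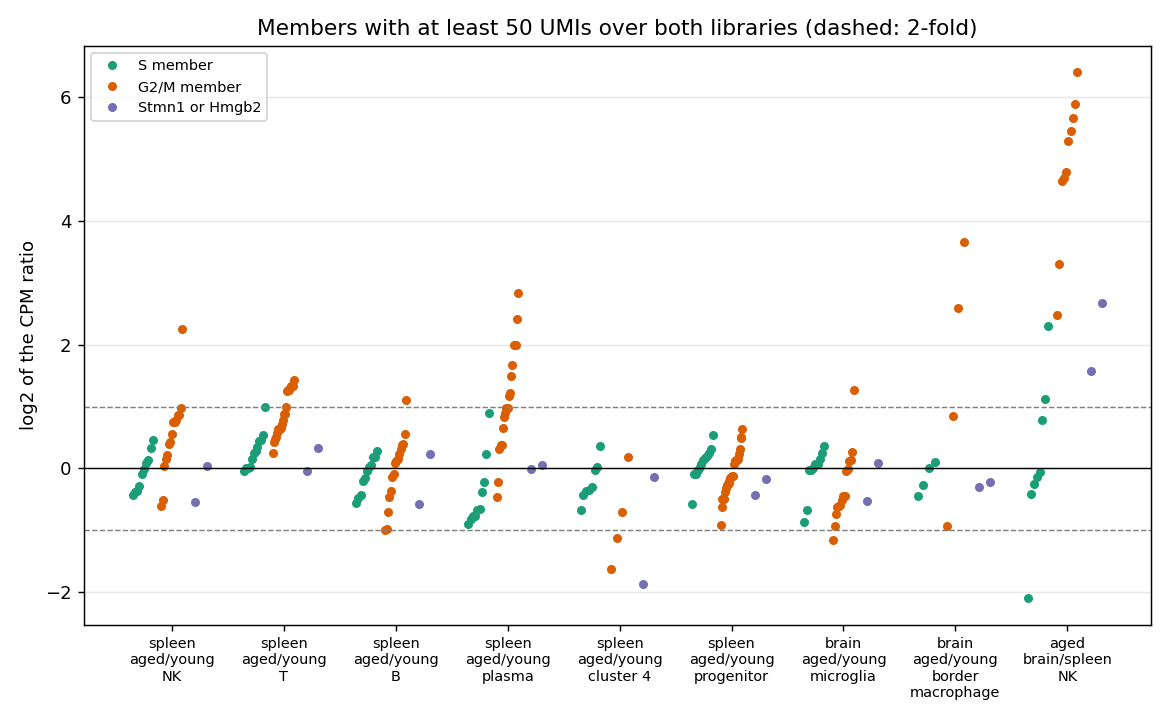
Log2 ratio of CPM for each member with at least 50 UMIs over both libraries, 1 point per member and 1 group of points per comparison, coloured by phase, with dashed lines at 2-fold (cluster 4 is the unnamed cluster led by Ly6c2). G2/M points of aged brain over aged spleen NK-like cells reach a ratio of 84.5 (Cenpf), while those of splenic B-like cells lie between 0.499 (Spc25) and 2.14 (Ccnb1).

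S and G2/M members overlapped in cells to different degrees, at each cell's own depth. Depth differed between the classes of aged spleen. Median UMIs per cell were 14719.5 in progenitor-like, 2220 in plasma-like, 5391 in T-like and 4199 in B-like cells. The part of depth in the overlap was not tested. In progenitor-like cells of the aged spleen, 52 of 53 G2/M cells were also S cells, and in plasma-like cells 29 of 39. In T-like cells it was 28 of 62 (aged) and 12 of 28 (young), and in B-like cells 10 of 24 and 10 of 31. S cells without 3 G2/M members were far more numerous in lymphocytes, at 251 and 227 T-like, 139 and 162 B-like and 106 and 233 NK-like cells, aged before young. Such counts follow depth: after thinning, S cells made up 0.638% of aged spleen T-like cells, against 22.2% before. In microglia-like cells 53 and 22 cells were S cells alone.

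Other cell cycle genes were read from 4 further lists: 41 other S genes, 55 other G2/M genes, 16 G1 regulators and 11 cycle inhibitors. In splenic T-like cells 2 of 29 measured other S genes and 4 of 28 other G2/M genes were higher by over 2-fold and none was lower, where 3.64% of all genes were higher and 2.41% lower, among them Ccne2 (3.73), Ncapg (3.61), Hmmr (2.49) and Uhrf1 (2.07). In plasma-like cells 5 of 22 other G2/M genes were higher (Hmmr 6.80, Ncapd2 4.26, Racgap1 3.16), where 7.2% of all genes were. There 6 of 9 G1 regulators were lower, with Cdk6 at 0.249, Myc at 0.272, Cdk4 at 0.434 and Ccnd2 at 0.489, where 27.9% of all genes were lower. The median log2 ratio was −1.11 over these regulators and −0.63 over all genes, and Cdk4 and Ccnd2 lay less than 2-fold below the median gene. In aged brain over aged spleen NK-like cells 12 of 14 other G2/M genes were higher, such as H2afx (12.4) and Smc2 (10.4), where 11.7% of all genes were. There 5 of 7 inhibitors were lower, such as Klf2 (0.108) and Btg2 (0.259), where 14.7% of all genes were. Both counts rest on 20 brain cells, 4 of them G2/M cells. In microglia-like cells Spc24, also of the Ndc80 complex, stood at 5.54 against 31.7 CPM (0.175, 0.134 to 0.226), the 1 gene of 25 other G2/M genes past 2-fold, where 1.46% of all genes were lower and 5.28% higher. Of 9 inhibitors, Klf2 (0.304) and Cdkn2c (0.362) were lower and Tob1 (2.30) higher. In NK-like cells of the spleen Cdc25b was lower (0.468, 1 of 23 other G2/M genes, where 2.61% of all genes were lower), and in B-like cells Prim2 was higher (2.09, 1 of 30 other S genes, where 1.78% of all genes were higher).

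Cdkn1a, the p21 inhibitor of cyclin-dependent kinases, was higher in aged spleen in each of the 5 compared classes with at least 50 UMIs. The other inhibitors did not follow: Cdkn1a was the 1 gene past 2-fold of 9 measured in NK-like, 9 in T-like and 8 in B-like cells. Of all genes, 2.35%, 3.64% and 1.78% were higher there. The median log2 ratio of the inhibitors was 0.09, 0.21 and 0.02, beside −0.12, −0.07 and −0.12 over all genes. It stood at 131 against 53.5 CPM in NK-like cells (2.45, 2.14 to 2.81), 42.7 against 12.1 CPM in T-like cells (3.53, 2.77 to 4.55) and 10.2 against 4.21 CPM in B-like cells (2.43, 1.66 to 3.59). In the unnamed cluster led by Ly6c2 it stood at 104 against 22.0 CPM (4.71, 3.57 to 6.31), and in progenitor-like cells at 112 against 28.8 CPM (3.91, 2.39 to 6.81). The share of cells with a UMI was 35.9% against 16.5% in NK-like and 15.1% against 4.78% in T-like cells. All T-like clusters showed it: 12.5 against 3.45 CPM in the Dapl1 cluster, 56.3 against 8.52 in the Ctla4 cluster and 119 against 22.3 in the Cxcr6 cluster. Free RNA moved the same way, at 44.9 CPM in aged and 17.3 CPM in young spleen, above the level of T- and B-like cells in both libraries, and its part was not tested. In brain, Cdkn1a was lower in aged microglia-like cells (17.5 against 28.8 CPM, 0.606, 0.501 to 0.733), with 31.5 CPM of free RNA in both libraries. For young brain this free level, too, was taken without leaving out shared barcodes.

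**Figure D5:**
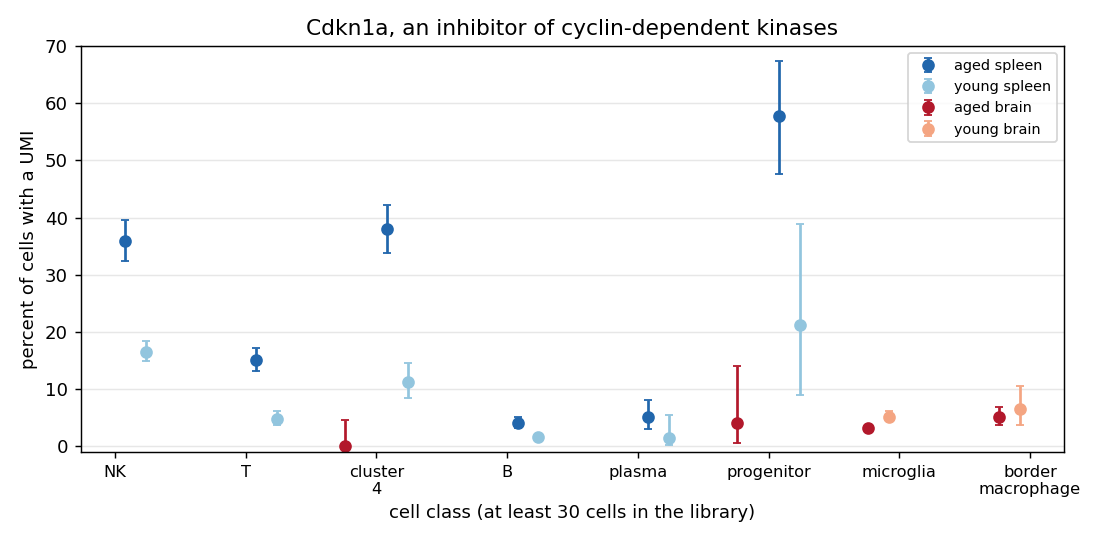
Percent of cells with a Cdkn1a UMI by class, 1 point per library with at least 30 cells of the class, with exact 95% intervals for counting error, at each cell's own depth (cluster 4 is the unnamed cluster led by Ly6c2). Aged spleen lies above young spleen in NK-like cells (35.9% against 16.5%) and T-like cells (15.1% against 4.78%). Brain points run from 0% (aged cluster 4) to 6.49% (young border macrophage-like cells), a range that also holds splenic B-like cells (4.09% aged and 1.57% young).

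The authors' deposited tables of cluster genes also group the members. In the aged brain table, cluster 10 lists 207 of the 31053 genes and among them 18 of the 40 members. Its first genes are Mki67 and Top2a, with average log fold changes of 2.38 and 2.32 (log base not stated), and then the red cell gene Alas2. The aged spleen table lists 28 members among 522 genes in cluster 8, which also holds Ube2c and Birc5 among its first genes. It lists 28 among 569 genes in cluster 14, whose first genes are the red cell genes Slc4a1, Tmcc2 and Alas2. In the authors' deposited tables of the young brain and young spleen, clusters 8 and 9 list 8 and 11 members among 367 and 552 genes. The authors' clusters used their own cells and were not matched to the classes above.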

How the data were processed

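The deposited 10x matrices hold counts, whole numbers of UMIs per gene and barcode, which the authors made with Cell Ranger, per the submitters' processing notes (version 1.3.1). The notes name the build GRCh38, whereas the file headers name software version 3.1.0 and the 31053 genes are mouse genes, so the authors' build was not settled. The authors' deposited tables of cluster genes hold average log fold changes, whose base is not stated and was taken as natural log, and p-values, which were not used.

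The members and gene lists were chosen with earlier results of these data known. Barcodes of at most 100 UMIs gave the free RNA profile. Cells were called against it (10000 simulations, false discovery rate 0.01) and kept with at least 500 UMIs, 250 genes and at most 10% mitochondrial UMIs. Scrublet in scanpy 1.11.5 removed doublets. In both brain libraries its automatic cut-off marked too few, and 0.8% per 1000 cells was removed. Cells were clustered with Leiden (leidenalg 0.10.2, resolution 1.0, 2000 variable genes without cell cycle genes, 30 components, 15 neighbours) and named from 19 marker lists. Counts were summed per class and library, as CPM. Ratios have exact conditional binomial intervals, and the ratio code was tested on simulated data. No test was run, and no replicate exists.

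Genes named in full are Mki67, Top2a, Pcna and Stmn1, the 2 members of each role with the most UMIs, up to 6 members each way past 2-fold per comparison and up to 4 genes of each other list. Comparisons of the unnamed cluster, of progenitor-like cells and of T-like clusters, and the account of Cdkn1a by class, were added after their values were seen. Neutrophil-like cells had been meant as the class that does not divide, but their leading genes are those of immature cells, and choroid- and mural-like cells were used for this. Alternatives changed the filters, doublet removal, clustering, barcodes left out, depth, scaling, thresholds and promoter window.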

Additional observations from a re-analysis of the deposited data

How the results depend on the processing

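No paired analysis was possible because each group holds 1 library, and for the same reason no replicate could be left out. Of the values recomputed for sums, counts of members and shares per library, 273 stayed within their counting interval (counts of members within 1.5 times), 159 moved further and 10, of ratios past 2-fold, turned to the other side of 1. The 10 leave out ratios short of 2-fold that turned, such as the splenic T-like G2/M ratio. Those are counted as moved or, within the interval, as stayed. The cause was not tested. The settings that left out the top cell of each library, took T-like clusters alone or left out the Lpl cluster were added after the data were seen. Depth limits the spleen shares most: after thinning, the highest library share of G2/M cells was 1.465%, in aged spleen. Aged brain NK- and T-like cells are 20 each and young erythroid-like cells 13, so their ratios rest on few cells. Called cells depend on a test against free RNA, and class names on marker lists. Clustering with cell cycle genes left no plasma-like class. The values that moved follow, class by class.

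In splenic NK-like cells, the G2/M ratio of 1.38 became 1.01 after thinning to 1000 UMIs, 1.11 with cell cycle genes in the clustering, 1.51 with median-of-ratios scaling, 1.60 with a minimum of 1000 UMIs and 1.23 with a 20% mitochondrial limit. It also became 1.65 with a 5% mitochondrial limit, 1.83 without doublet removal, 1.22 at resolution 2.0, 1.02 without G2/M and S cells and 1.13 without the top cell of each library. The S ratio of 0.983 became 1.07 with median-of-ratios scaling and 1.05 with a minimum of 1000 UMIs. The count of 1 member past 2-fold became 8 at 1.5-fold, 3 with another seed, 2 with 20 UMIs per gene, 0 with cell cycle genes in the clustering and 3 with a minimum of 1000 UMIs. It also became 3 with a 5% mitochondrial limit and 5 without doublet removal.

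In splenic T-like cells, the G2/M ratio of 1.75 became 0.336 in the Ctla4 cluster alone, 1.44 in the Cxcr6 cluster, 2.80 in the Dapl1 cluster, 1.62 with all young brain barcodes kept and 1.22 after thinning to 1000 UMIs. It also became 1.56 with cell cycle genes in the clustering, 1.56 with a minimum of 1000 UMIs, 1.47 with a 20% mitochondrial limit, 0.876 with a 5% mitochondrial limit and 1.42 at resolution 2.0. It also became 1.49 without G2/M and S cells and 1.92 without the top cell of each library. The S ratio of 1.15 became 0.909 in the Ctla4 cluster alone, 1.01 in the Cxcr6 cluster, 1.21 in the Dapl1 cluster, 0.995 after thinning to 1000 UMIs and 1.02 with cell cycle genes in the clustering. It also became 0.951 with a 5% mitochondrial limit, 1.09 at resolution 2.0 and 1.03 without G2/M and S cells. The count of 8 members past 2-fold became 17 at 1.5-fold, 2 with cell cycle genes in the clustering, 5 with a 20% mitochondrial limit, 2 with a 5% mitochondrial limit and 3 at resolution 2.0. It also became 1 without G2/M and S cells.

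In splenic B-like cells, the G2/M ratio of 1.03 became 1.13 after thinning to 1000 UMIs, 1.11 with median-of-ratios scaling, 1.32 with a minimum of 1000 UMIs and 0.957 without doublet removal. The S ratio of 0.984 became 1.06 after thinning to 1000 UMIs, 1.07 with median-of-ratios scaling and 1.05 with a minimum of 1000 UMIs. The count of 2 members past 2-fold became 4 at 1.5-fold, 1 with all young brain barcodes kept, 1 with cell cycle genes in the clustering, 7 with a minimum of 1000 UMIs and 1 with a 5% mitochondrial limit. It also became 1 without G2/M and S cells.

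In splenic plasma-like cells, the G2/M ratio of 2.08 became 1.56 with all young brain barcodes kept, 1.01 after thinning to 1000 UMIs, 3.21 with median-of-ratios scaling, 1.64 with a minimum of 1000 UMIs and 1.36 with a 20% mitochondrial limit. It also became 1.25 with a 5% mitochondrial limit, 4.38 at resolution 2.0 and 0.922 without G2/M and S cells. The S ratio of 0.703 became 0.450 with all young brain barcodes kept, 0.559 with another seed, 0.559 without any barcode that had more UMIs elsewhere, 1.09 with median-of-ratios scaling and 0.521 with a minimum of 1000 UMIs. It also became 0.561 with a 5% mitochondrial limit and 3.06 at resolution 2.0. The count of 9 members past 2-fold became 21 at 1.5-fold, 16 with all young brain barcodes kept, 14 with another seed, 14 without any barcode that had more UMIs elsewhere and 15 with a minimum of 1000 UMIs. It also became 5 with a 20% mitochondrial limit and 1 without G2/M and S cells.

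In splenic erythroid-like cells, the G2/M ratio of 7.90 became 1.55 with cell cycle genes in the clustering, 3.99 with median-of-ratios scaling, 1.62 with a 20% mitochondrial limit and 3.25 without G2/M and S cells. The S ratio of 11.9 became 1.16 with cell cycle genes in the clustering and 1.17 with a 20% mitochondrial limit. The count of 24 members past 2-fold became 4 with cell cycle genes in the clustering, 4 with a 20% mitochondrial limit and 0 without G2/M and S cells.

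In microglia-like cells, the G2/M ratio of 0.842 became 0.926 after thinning to 1000 UMIs, 1.06 with cell cycle genes in the clustering, 1.05 without G2/M and S cells and 0.682 without the Lpl cluster. The count of 2 members past 2-fold became 9 at 1.5-fold, 4 with 20 UMIs per gene, 1 with cell cycle genes in the clustering, 1 with a 5% mitochondrial limit and 4 without doublet removal. It also became 1 without G2/M and S cells.

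In border macrophage-like cells, the G2/M ratio of 1.48 became 0.954 after thinning to 1000 UMIs, 0.687 with cell cycle genes in the clustering, 0.947 with a 5% mitochondrial limit, 1.12 without doublet removal and 0.617 without G2/M and S cells. The count of 2 members past 2-fold became 4 at 1.5-fold, 6 with 20 UMIs per gene, 1 with a 5% mitochondrial limit and 1 without G2/M and S cells.

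In NK-like cells of aged brain over aged spleen, the G2/M ratio of 27.2 became 22.3 after thinning to 1000 UMIs, 0.702 with cell cycle genes in the clustering, 23.4 with a minimum of 1000 UMIs, 30.6 with a 20% mitochondrial limit and 30.9 with a 5% mitochondrial limit. It also became 24.1 without doublet removal and 0.652 without G2/M and S cells. The ratio of S sums, 1.23, became 0.520 without G2/M and S cells. The count of 15 members past 2-fold became 25 with 20 UMIs per gene, 4 with cell cycle genes in the clustering and 2 without G2/M and S cells.

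In T-like cells of aged brain over aged spleen, the G2/M ratio of 2.82 became 0.688 with all young brain barcodes kept, 0.620 with another seed, 0.437 without any barcode that had more UMIs elsewhere, 4.41 after thinning to 1000 UMIs and 0.701 with cell cycle genes in the clustering. It also became 0.419 with a minimum of 1000 UMIs, 2.01 without doublet removal, 0.869 without G2/M and S cells and 0.544 without the top cell of each library. The ratio of S sums, 0.923, became 0.562 with another seed, 0.329 without any barcode that had more UMIs elsewhere, 0.434 after thinning to 1000 UMIs, 0.356 with cell cycle genes in the clustering and 0.378 without G2/M and S cells. It also became 0.318 without the top cell of each library. The count of 18 members past 2-fold became 5 with all young brain barcodes kept, 6 with another seed, 3 without any barcode that had more UMIs elsewhere, 3 with cell cycle genes in the clustering and 2 with a minimum of 1000 UMIs. It also became 8 with a 5% mitochondrial limit and 2 without G2/M and S cells.

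In the aged brain library, the 0.879% of G2/M cells became 1.58% with 2 members asked for. The 1.61% of S cells became 5.46% with 2 members asked for, 0.478% with 5 asked for, 0.290% after thinning to 1000 UMIs, 1.98% with a minimum of 1000 UMIs and 1.998% with a 20% mitochondrial limit.

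In the young brain library, the 0.365% of G2/M cells became 1.69% with all young brain barcodes kept and 0.843% with 2 members asked for. The 1.01% of S cells became 1.83% with all young brain barcodes kept, 4.52% with 2 members asked for, 0.197% with 5 asked for and 0.197% after thinning to 1000 UMIs.

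In the aged spleen library, the 4.76% of G2/M cells became 12.3% with 2 members asked for, 2.79% with 5 asked for, 1.47% after thinning to 1000 UMIs and 6.82% with a 5% mitochondrial limit. The 15.3% of S cells became 37.2% with 2 members asked for, 3.21% with 5 asked for, 1.29% after thinning to 1000 UMIs, 14.3% with a 20% mitochondrial limit and 18.3% with a 5% mitochondrial limit.

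In the young spleen library, the 2.41% of G2/M cells became 7.99% with 2 members asked for, 1.21% with 5 asked for and 0.701% after thinning to 1000 UMIs. The 12.8% of S cells became 35.1% with 2 members asked for, 1.79% with 5 asked for, 0.685% after thinning to 1000 UMIs and 14.4% with a 5% mitochondrial limit.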

Other observations

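A dendritic-like class, led by Tbc1d4, S100a4 and Ptgs2, also held G2/M members. Cells with at least 3 of them numbered 8 of 86 in aged brain, 20 of 335 in aged spleen and 13 of 142 in young spleen. Of these, 5, 8 and 7 also held at least 3 S members. In aged brain, endothelial-like cells held 4 of 460 such cells and astrocyte-like cells 1 of 69. A brain cluster of few UMIs per cell, which stayed unnamed, held 5 of 2309 in aged and 0 of 510 in young brain. Spleen monocyte- and macrophage-like cells held 1 of 55 in aged and 0 of 116 in young spleen.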
